A study of Mus musculus with 32 samples.

Results

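How far gene expression in the mouse kidney was settled between the fourth and the fifth week after birth was examined by setting the 4 arrays from postnatal day 35 (P35) against the 3 arrays from postnatal day 28 (P28), over all genes measured on them. These 7 arrays belong to a series of 32 2-colour microarrays of kidney total RNA at 10 stages, starting at embryonic day 19 (E19). P35 kidneys and P28 kidneys both came from C57BL/6 mice, an inbred laboratory strain, and are described by their source names as normal kidney. On every array the kidney RNA carried Cy5 and a mouse universal reference RNA carried Cy3. Each value was read as the ratio of kidney to reference, a direction taken from kidney marker genes, and is given here as log2. A protocol text repeated for the samples mentions ureteral obstruction, whereas the source names do not. The labels give neither the sex of the animals nor the number of animals behind the arrays of a stage, so p-values measure the spread between arrays, which may be partly technical.

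The mouse kidney goes on forming nephrons for only a few days after birth. Later growth comes from lengthening and maturing of tubules, and weaning falls late in the third week, when the diet changes from milk to solid food. Puberty follows in the weeks after that, and adult male and female mouse kidneys are known to differ in transporters and in steroid and drug metabolism of the proximal tubule. P28 and P35 lie between weaning and adulthood.

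Kidney marker genes served to read the direction of the ratio, so their place above the reference is a description and not a check. All 29 measured genes of a proximal tubule transport list, the segment that reclaims most of the filtrate, were above the reference on each of the 7 arrays. The list's median log2 ratio lay between 5.49 and 6.58 on the P35 arrays and between 5.53 and 6.01 on the P28 arrays. All 10 measured genes of the thick ascending limb, the salt-reclaiming segment that makes uromodulin, were above the reference too. The list of cell division genes was below the reference on all 7 arrays, in all 23 members. Between 16994 and 17491 genes were measured on a P35 array and between 16604 and 17225 on a P28 array. The labels number the array images in 3 runs of consecutive numbers, a possible batch. P35 array 1 and P28 array 1 belong to run 2, and P35 arrays 2 to 4 and P28 arrays 2 and 3 to run 3.

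Between P28 and P35 most genes had differences too small for these arrays to tell from 0. Of 16758 genes measured on at least 2 arrays of each stage, 2 passed limma's moderated test at an adjusted p under 0.05, which is 0.0119%. Chrdl1 was higher at P35 and Serpina6 lower, 0.00597% in each direction. At an unadjusted p under 0.05 there were 332 genes, or 1.98%, with 194 (1.16%) higher and 138 (0.823%) lower at P35. Unchanged genes with evenly spread p-values would give a share of 0.05, so the share found was below that. The image run as a block gave 604 such genes. Over all genes tested the median log2 difference, P35 minus P28, was -0.01, and 46.9% of the differences were above 0. The median absolute difference was 0.13 and the 95th percentile 0.61. A difference of at least 2-fold was reached by 210 genes, 117 higher and 93 lower at P35, and 124 of these were measured on all 7 arrays. A difference of at least 4-fold was reached by 10.

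A p that misses the threshold does not show that a gene stayed level, so the interval of each difference was used to bound it. The 95% interval lay wholly within a 2-fold change for 11870 genes, which is 70.8%, and within a 1.5-fold change for 4787, or 28.6%. The median interval reached 0.60 to either side of its estimate on the log2 scale. For the remaining genes these 7 arrays leave a change of 2-fold or more within the interval.

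Distances between single arrays were compared next. The median absolute log2 difference between a P35 and a P28 array, over the 16067 genes measured on all 7, had a median of 0.326 over 12 pairs. Between P35 arrays it was 0.348 over 6 pairs, and between P28 arrays 0.326 over 3 pairs. A P35 array was thus about as far from a P28 array as from another P35 array. The same was nearly so for P21 and P14, a step with many more genes past the test, so this measure does not separate the 2 steps. Over the 15149 genes measured on all 32 arrays, the median was 0.357 between P21 and P14 arrays, against 0.319 within P21 and 0.349 within P14, and 0.314 between P35 and P28 arrays, against 0.339 within P35 and 0.316 within P28. Each of the 7 arrays had its nearest array in the other stage, and always in the same image run. Run 2 holds only 1 array of each stage, so there a nearest array of the same run has to be in the other stage. Within run 3 the nearest arrays also shared a high or low level of Xist, given by array further on. P35 array 2 and P28 array 2 lay 0.197 apart, with a correlation of 0.975 over genes. P35 array 3 and P28 array 3 lay 0.228 apart, and P35 array 1 and P28 array 1 lay 0.233 apart. P35 array 4 lay farther out, 0.321 from its nearest array, P28 array 2. Pairs of a P35 with a P28 array from the same run had a median distance of 0.288 over 7 pairs, against 0.350 over 5 pairs from different runs.

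**Figure D1:**
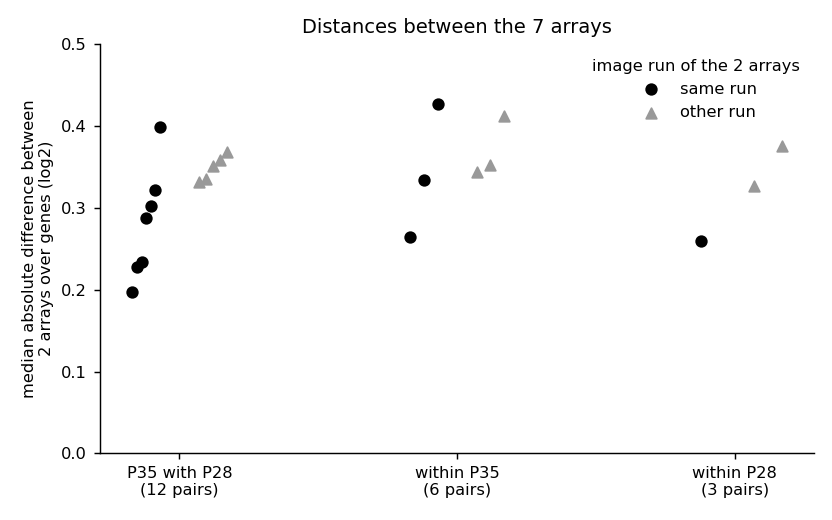
Each symbol is a pair of arrays and its height is the median absolute log2 difference between the 2 arrays over 16067 genes, with circles for pairs of the same image run and triangles for pairs of different runs. The 12 pairs of a P35 with a P28 array span 0.197 to 0.399, the 6 pairs within P35 span 0.264 to 0.427 and the 3 pairs within P28 span 0.260 to 0.376.

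Across the 9 steps between neighbouring stages, P35 minus P28 had the smallest median absolute difference. It was 0.131, and the others ran from 0.158 for P05 minus P03 to 0.262 for P01 minus E19. Its share of genes with an interval within 2-fold, 70.8%, was also the highest, against 53.6% to 68.3% for the others. The number of genes passing the test did not single it out, since P05 minus P03 and P10 minus P07 had 0 by limma, with 492 and 745 genes at an unadjusted p under 0.05. P05 minus P03 and P03 minus P01 also set 3 arrays against 4. The 2 preceding steps had more: P28 minus P21 had 45 genes, or 0.269%, with 26 higher and 19 lower (0.155% and 0.113%). P21 minus P14 had 440, or 2.59%, with 0.658% higher and 1.93% lower. Xist, given by array further on, was high on all 3 P21 arrays, on 1 of 3 P28 arrays and on none of the P14 arrays. P28 minus P21 shares the P28 arrays with P35 minus P28, so their values are given side by side only. Every stage up to P21 has 1 array from image run 1, and P28 and P35 have 0. What part the runs have in the sizes of the steps was not tested. The median SE of a difference was 0.289 for P35 minus P28 and 0.309 to 0.312 for steps of 3 arrays against 3, whose intervals are thus wider.

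**Figure D2:**
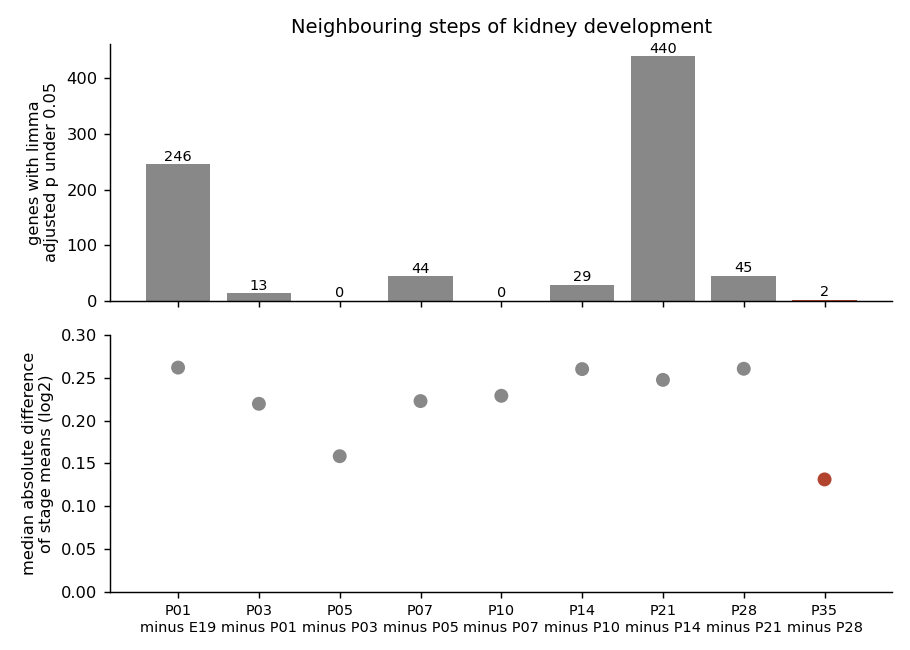
The upper panel gives the number of genes with a limma adjusted p under 0.05 and the lower panel the median absolute log2 difference of stage means, for the 9 steps between neighbouring stages in order of age, with P35 minus P28 in red. The last step has 2 genes and the lowest point, 0.131.

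The change from P28 to P35 was tested against the change from P14 to P21, a step that also lasts 7 days and shares no array with it. That step differed in Xist: all 3 P21 arrays were high (1.92 to 1.98) and all 3 P14 arrays low (-6.04 to -5.71), and Eif2s3y ran the other way, from -7.88 to -6.69 on the P21 arrays and from 1.66 to 2.89 on the P14 arrays. Age and the pattern of Xist and Eif2s3y thus cannot be told apart within P21 minus P14. A fit with Xist as a covariate does not separate them there, since its adjustment rests on arrays of other stages. Arrays of both patterns were present at P35 and at P28. The difference between the 2 changes passed limma's test for 116 of 16610 genes, or 0.698%, with 97 positive (0.584%) and 19 negative (0.114%). All 97 positive genes had a P21 minus P14 difference below 0, with a median log2 change of 0.24 for P35 minus P28 and of -1.70 for P21 minus P14. The 19 negative genes had medians of -0.29 for P35 minus P28 and 1.51 for P21 minus P14. In 114 of the 116 the change was larger in size from P14 to P21, and the exceptions were Chrdl1 and Serpina6. Of 23 cell division genes, 13 were among the 97. With only the 4 stages fitted 0 of the 23 passed, with Xist as a covariate 3, and with 1 array left out 2 to 15 (2 without P28 array 3), while the list's median difference between steps stayed between 1.29 and 1.59 in every setting run. Mki67, the Ki-67 proliferation antigen, differed by 0.43 for P35 minus P28 and by -1.70 for P21 minus P14, and the difference between steps was 2.13 ± 0.47 (SE; adjusted p = 0.0273). Birc5, which encodes survivin, had 0.50 for P35 minus P28 and -2.16 for P21 minus P14. Top2a, the topoisomerase of dividing cells, had 0.34 for P35 minus P28 and -1.71 for P21 minus P14. Outside that list, Cstdc6 had the largest positive difference between steps, 6.35, with 1.51 for P35 minus P28 and -4.84 for P21 minus P14. Fst, which encodes the activin antagonist follistatin, had a difference of -2.27, with 0.32 for P35 minus P28 and 2.59 for P21 minus P14. This count moved with the fit: it was 10 with only the 4 stages fitted, 41 with Xist as a covariate, and 28 without P21 array 1.

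Chrdl1 encodes chordin-like 1, a secreted antagonist of bone morphogenetic proteins, and lies on the X chromosome in the RefSeq annotation. Its log2 ratios were 0.61, 0.55, 0.11 and 2.73 on the P35 arrays, against -1.94, -2.23 and -1.76 on the P28 arrays. All P35 arrays lay above all P28 arrays, with P35 array 4 the highest. The difference was 2.98 ± 0.45 (SE), which is 7.89-fold, with a 95% interval of 2.05 to 3.91 and an adjusted p of 0.00985. At the 9 earlier stages the mean had stayed between -2.56 (P21) and -1.14 (E19), so for the probe used the P35 mean of 1.00 was the first above the reference. A second probe of the gene, measured on 2 of the 3 P28 arrays, gave 2.69 ± 0.57. Its level was -0.94 on P28 array 1 and already above the reference, at 0.26, on P28 array 3. Within image run 2 the difference was 2.55, from 1 array each, and within run 3 it was 3.13 ± 0.62 (adjusted p = 0.638). The call was lost when P28 array 1, 2 or 3 was left out (adjusted p = 0.0947, 0.0692 and 0.0587), and when only P35 and P28 were fitted.

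Serpina6 encodes corticosteroid-binding globulin, the plasma carrier of glucocorticoids, which is made mainly in liver. Its log2 ratios were 2.85, -1.15, 1.28 and 0.96 on the P35 arrays, against 4.45, 3.74 and 3.86 on the P28 arrays. The groups did not overlap, and P35 array 2 was the lowest. The difference was -3.03 ± 0.51 (SE; 8.18-fold lower at P35), with a 95% interval of -4.07 to -1.99 and an adjusted p of 0.0228. From E19 to P21 the stage means lay between 4.37 (P01) and 4.97 (P21), P28 had 4.02 and P35 0.98. Within run 2 the difference was -1.60, and within run 3 it was -3.44 ± 0.57 (adjusted p = 0.609). The call was lost without P28 array 1, 2 or 3 (adjusted p = 0.289, 0.0692 and 0.140), without P35 array 4 (adjusted p = 0.0969), and when only P35 and P28 were fitted. A list of liver and pancreas genes did not move one way: 7 of 10 were above 0, and albumin (Alb) had 4.56, 3.80, 4.12 and 3.82 on the P35 arrays and 4.37, 3.21 and 2.94 on the P28 arrays. What share such transcripts have in the kidney's own cells was not tested.

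**Figure D3:**
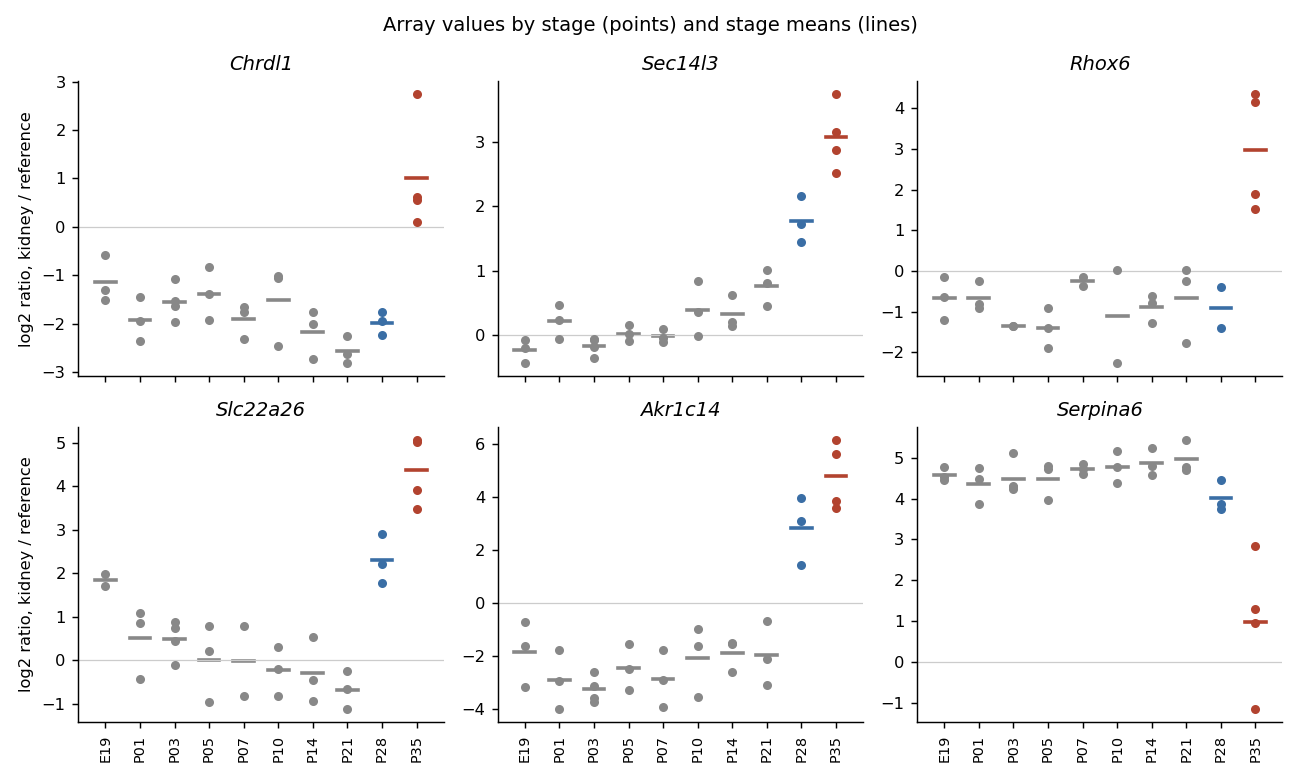
Log2 ratios of kidney to reference for 6 genes on the arrays that measured them, with points for arrays and lines for stage means, in order of age; P28 is blue and P35 red. Chrdl1 and Rhox6 are near or below 0 up to P28 and above 0 on all 4 P35 arrays, Sec14l3, Slc22a26 and Akr1c14 already stand higher at P28 than at P21, and Serpina6 is low at P35 only.

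The 9 genes next in line by unadjusted p in the upward direction did not pass the test, and their values are given as a description. Sec14l3, a member of the Sec14-like family of lipid-binding proteins, had 2.51, 3.74, 2.88 and 3.16 on the P35 arrays, against 1.45, 2.16 and 1.73 on the P28 arrays. The groups did not overlap, and the difference was 1.29 ± 0.24 (adjusted p = 0.0566). Its probes disagreed in size. One probe measured on all 32 arrays gave 0.24 ± 0.27 and another 2.34 ± 0.29, which passed the test over 36158 probes (adjusted p = 0.000915). The larger one had 2.16, 3.41, 2.28 and 2.61 on the P35 arrays, against -0.46, 0.74 and 0.52 on the P28 arrays. A further probe, measured on only 9 of the 32 arrays, had 7.77, 7.86, 7.44 and 8.20 on the P35 arrays, against 1.20 and 0.72 on P28 arrays 2 and 3 and no value on P28 array 1. Since most arrays have no value for it, its difference is left as a description. The gene's stage mean was 0.76 at P21, 1.78 at P28 and 3.07 at P35.

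Rhox6 and Rhox9 are reproductive homeobox genes that lie close together on the X chromosome, with 2 coding genes between them in the RefSeq annotation. Rhox6 had 1.52, 4.17, 1.89 and 4.34 on the P35 arrays, against -1.41 and -0.39 on P28 arrays 1 and 3, with P28 array 2 not measured. Its difference was 3.88 ± 0.71 (adjusted p = 0.0714). Rhox9 had 0.72, 2.20, 1.16 and 3.26 on the P35 arrays, against -0.38, 0.13 and -0.61 on the P28 arrays, a difference of 2.12 ± 0.40 (adjusted p = 0.0594). In both genes P35 arrays 2 and 4 were the highest. Every stage mean before P35 lay below 0 for both.

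Slc22a26, an organic anion transporter gene of the Slc22 family, had 3.92, 5.05, 3.47 and 5.01 on the P35 arrays, against 2.90, 2.22 and 1.77 on the P28 arrays. The groups did not overlap, yet the difference of 2.07 ± 0.50 had an adjusted p of 0.856. Its preceding step, P28 minus P21, was 2.97 and passed (adjusted p = 0.0121). Urah, the 5-hydroxyisourate hydrolase of urate breakdown, had 1.70, 1.65, 1.70 and 2.41 on the P35 arrays, against 0.76, 1.04 and 0.96 on the P28 arrays, a difference of 0.95 ± 0.24. 4930533I22Rik differed by 1.54 (adjusted p = 0.181), Spem1 by 1.33, Scrg1 by 1.73 and H2al3 by 1.27. In all 9 the measured arrays of the 2 stages did not overlap, which the choice by lowest p makes likely. Over the genes measured on all 7 arrays, 195 of 16067 (1.21%) had every P35 array above every P28 array and 178 (1.11%) had every P35 array below. Together these were 373 (2.32%), whereas 4 arrays against 3 in random order would separate in a share of 0.0571. Lack of overlap is thus not by itself a sign of change.

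In the downward direction the 9 genes that followed Serpina6 did not pass either. Hes7, a Hairy/Enhancer-of-split repressor known from the segmentation clock, had -1.22, -2.16, -2.65 and -2.13 on the P35 arrays, against -0.41, -1.25 and 5.34 on the P28 arrays. Its difference of -3.27 ± 0.86 rested on P28 array 3. Lcp2, an adaptor of T cell receptor signalling, showed the same single high array, with -4.20, -3.90, -3.83 and -3.88 on the P35 arrays against -3.57, -4.14 and 3.20 on the P28 arrays. Kcnf1, a potassium channel subunit, averaged 0.93 at P35 and 2.28 at P28, without overlap, a difference of -1.35 ± 0.38. Cd160 differed by -1.39, Megf6 by -1.12, Klhl11 by -1.32, Nlrp3 by -1.02, Ntm by -1.64, Polr3e by -0.80 and Eomes by -1.49, the last from 2 arrays of each stage. Polr3e had risen in P28 minus P21 by 1.86 (adjusted p = 0.00219), and Nlrp3 by 1.83 (adjusted p = 0.0122).

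Genes that had changed over the preceding development were then followed into the last step. P21 minus E19 shares no array with P35 minus P28, and 5228 of 17205 genes, or 30.4%, passed the test there, 16.3% higher and 14.1% lower at P21. The 2794 that rose up to P21 and could be tested here had a median P35 minus P28 difference of 0.06, and 63.7% of them were above 0. The 2377 that fell up to P21 had a median of -0.07, with 36.5% above 0. For the 11461 others the median was -0.02, with 44.9% above 0. These shifts compare with a median P21 minus E19 change of 1.19 for the first class and -1.27 for the second. Among the 451 genes that had risen at least 4-fold the median was 0.08, with 64.7% above 0, and among the 502 that had fallen at least 4-fold it was -0.04, with 46.0% above 0. Of the genes that had risen 0 passed the test from P28 to P35 by limma, with 68 at an unadjusted p under 0.05. Of those that had fallen 1 passed, Chrdl1, which rose, with 51 at an unadjusted p under 0.05.

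**Figure D4:**
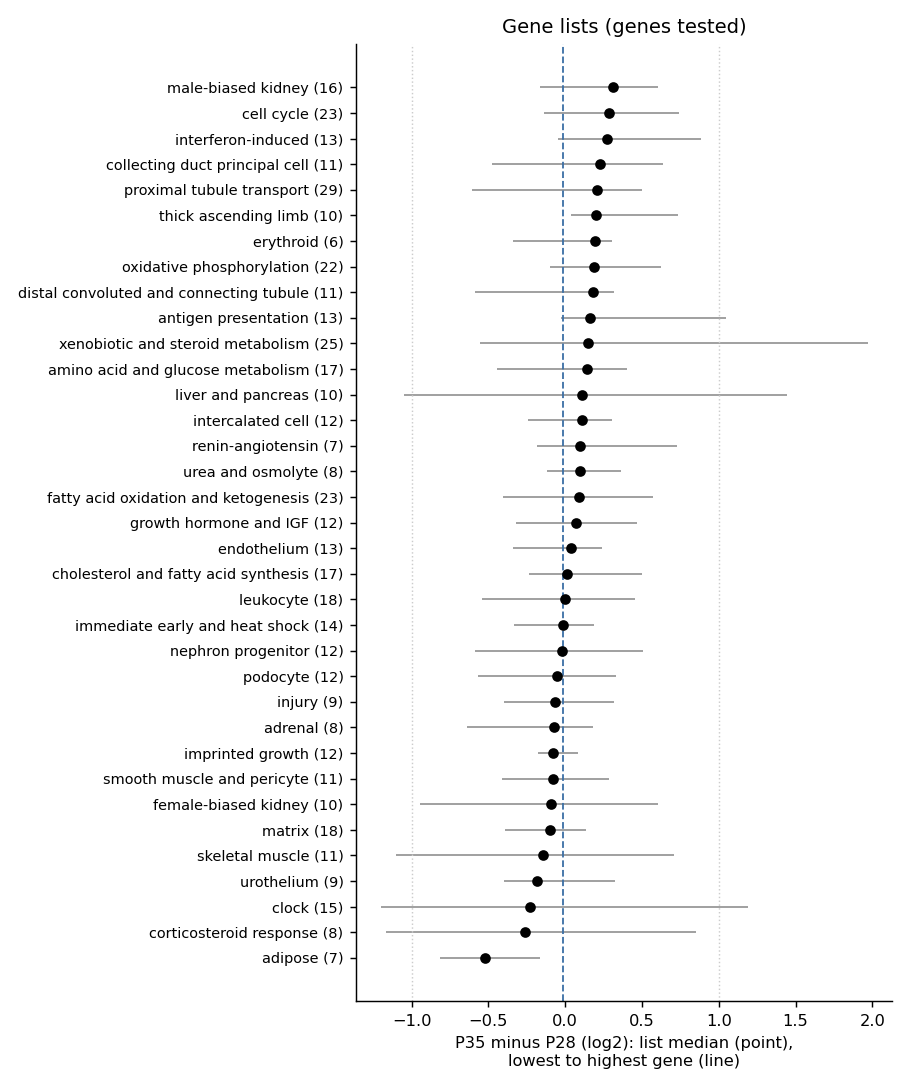
For 35 gene lists, the point is the median log2 difference, P35 minus P28, over the members tested (number in brackets) and the line runs from the lowest to the highest member; the dashed line is the median of all genes tested, -0.01, and dotted lines mark 2-fold. The list medians run from -0.52 (adipose) to 0.31 (male-biased kidney), and the widest line belongs to xenobiotic and steroid metabolism, with Akr1c14 at 1.97.

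None of the 459 genes tested from 36 lists of kidney cell types, metabolic pathways, hormone systems and other tissues passed limma's test, and 15 (3.27%) had an unadjusted p under 0.05, against 1.98% of all genes. Both shares are below the 0.05 that evenly spread p-values of unchanged genes would give. In 33 of the lists the median difference was under 0.3 in size, and 21 medians were above 0. The exceptions were the male-biased kidney, adipose and sex-linked lists.

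In the proximal tubule list 23 of 29 members were above 0, with a median of 0.21 (0.10 to 0.30 when 1 array was left out) and 20 of 29 intervals within 2-fold. Lrp2, the endocytic receptor megalin, had 6.03, 6.16, 6.58 and 5.49 on the P35 arrays and 6.01, 5.63 and 5.91 on the P28 arrays, overlapping ranges. Slc4a4, the basolateral sodium bicarbonate cotransporter, lay lower at P35 with 4.84, 4.46, 4.73 and 4.88 on the P35 arrays, against 5.25, 5.53 and 5.20 on the P28 arrays (-0.60 ± 0.34). In the thick ascending limb list all 10 members were above 0, with a median of 0.20 that ran from 0.09 to 0.32 when 1 array was left out. Its intervals were wide, with 3 of 10 within 2-fold against 70.8% of all genes. Umod, which encodes uromodulin, the most abundant protein of urine, had 5.52, 5.59, 5.85 and 5.44 on the P35 arrays, against 4.94, 5.10 and 4.57 on the P28 arrays. Its difference was 0.73 ± 0.28 without overlap, and its P21 mean was 5.40, close to the P35 mean of 5.60. The podocyte list had a median of -0.05 over 12 genes, between -0.17 and 0.10 when 1 array was left out. Nphs1, the slit diaphragm protein nephrin, had 4.01, 4.23, 4.40 and 3.27 on the P35 arrays and 4.13, 3.66 and 3.89 on the P28 arrays. In whole kidney, more cells of a type cannot be told from more RNA per cell.

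Cell division genes had a median difference of 0.29, with 17 of 23 above 0 and 0 of 23 past the test by limma, adjusted or unadjusted. Mki67 had -3.12, -3.65, -4.24 and -3.20 on the P35 arrays and -3.72, -3.82 and -4.42 on the P28 arrays. P35 arrays 1 and 4 were the highest in the list's mean, at -2.88 and -2.71, and P35 array 3, at -3.64, was as low as P28 array 3, at -3.61. Without P35 array 4 the list's median was 0.15. In the nephron progenitor list the median was -0.02 over 12 genes, and Six2, the factor that maintains these progenitors, differed by 0.15 ± 0.38. The matrix list had 1 of 18 members above 0, with a median of -0.10, and Lox, which cross-links collagen, differed by -0.39 ± 0.33. Without P35 array 4 the matrix median was 0.01.

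The oxidative phosphorylation list had a median of 0.19 with 18 of 22 above 0, and 21 of the 22 intervals lay within 2-fold. Its largest member, Ndufa4, had 2.15, 2.57, 2.02 and 3.30 on the P35 arrays and 2.10, 1.56 and 2.00 on the P28 arrays. In the fatty acid oxidation list 14 of 23 members were above 0, with a median of 0.09, and 17 of 23 intervals (73.9%) lay within 2-fold. Acadm, the medium-chain acyl-CoA dehydrogenase of fatty acid oxidation, had 3.76, 4.46, 3.96 and 3.98 on the P35 arrays, against 3.71, 3.42 and 3.27 on the P28 arrays, a difference of 0.57 ± 0.20.

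Members of the interferon and antigen presentation lists were mostly above 0, and those of the leukocyte list were not. Of 13 interferon-induced genes 12 were above 0, with a median of 0.27, and Gbp6, a guanylate-binding protein, differed by 0.89 ± 0.70. Of 13 antigen presentation genes 12 were above 0, with a median of 0.16 that ran from 0.09 to 0.36 when 1 array was left out. Ciita, the master regulator of MHC class II genes, had 1.70, 2.37, 2.73 and 2.14 on the P35 arrays, against -0.09, 1.58 and 2.07 on the P28 arrays, so its difference of 1.04 ± 0.52 leaned on P28 array 1. The leukocyte list had 9 of 18 members above 0 and a median of 0.00.

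Of 15 clock genes 3 were above 0, with a median of -0.23 that ran from -0.39 to -0.14 when 1 array was left out. A corticosteroid list holds receptors and steroid-metabolising enzymes as well as induced genes. Of its 8 tested members 3 were above 0, with a median of -0.26. An unadjusted p under 0.05 was reached by 3 of the 8, all lower at P35, against 1.98% of all genes. Single members varied between arrays of 1 stage. Arntl, which encodes the clock activator BMAL1, had -1.87, 0.13, 0.37 and -2.25 on the P35 arrays, against -1.08, -2.24 and -2.97 on the P28 arrays. P35 arrays 2 and 3 were high and arrays 1 and 4 fell among the P28 arrays. Ciart, a repressor of the clock, ran the other way at P35, with 0.18, -1.89, -2.99 and 0.85, against -0.06, 0.02 and 0.76 at P28. Per1, a clock gene also induced by glucocorticoids, had -0.17, -1.22, 0.22 and -0.89 on the P35 arrays, against 0.77, 0.25 and 0.94 on the P28 arrays (-1.17 ± 0.53). The glucocorticoid-induced Sgk1 differed by -0.95 ± 0.43 and Fkbp5 by -0.90 ± 0.40. The labels give no time of day of collection.

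Adipose markers, of tissue that adjoins the kidney, were low on 1 array. All 7 tested adipose genes were below 0, with a median of -0.52, the lowest of the lists drawn. The list's mean log2 ratio was 5.01, 5.38, 2.50 and 4.90 on the P35 arrays and 4.35, 5.24 and 5.22 on the P28 arrays, so P35 array 3 alone was low. Without that array the median was 0.04. Ucp1, the uncoupling protein of brown fat, had 6.26, 5.98, 1.98 and 6.56 on the P35 arrays and 5.61, 5.69 and 5.85 on the P28 arrays. The mean log2 ratio of the urothelium list was -0.12, 0.57, 0.12 and -0.17 on the P35 arrays and -0.15, 0.69 and 0.09 on the P28 arrays, high on array 2 of either stage. That of the skeletal muscle list was -0.84, -1.54, -1.57 and -1.42 on the P35 arrays and -1.19, -1.14 and -1.17 on the P28 arrays, highest on P35 array 1. The part of fat RNA in other differences of P35 array 3 was not tested.

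Much of the remaining spread lay within the stages. Xist, the RNA that silences 1 X chromosome in females, had 2.12, -5.81, 2.51 and -5.36 on the P35 arrays and -5.42, -5.48 and 2.28 on the P28 arrays. Eif2s3y, a gene of the Y chromosome, had -6.61, 2.31, -5.79 and 2.32 on the P35 arrays and 3.30, 2.31 and -6.98 on the P28 arrays. Each array was thus high in 1 of the 2 and low in the other, and the Y-linked genes Kdm5d and Uty followed Eif2s3y. The stages held these patterns in unequal number: Xist was high on 2 of 4 P35 arrays and 1 of 3 P28 arrays.

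Several genes, some of them from the lists of sex-biased kidney genes, took levels on the P35 arrays that ran with or against those of Xist. How many of all genes did so was not counted, and with so few arrays such a split arises readily by chance. Those described next were chosen after their values were seen. Acsm3, an acyl-CoA synthetase, had 5.09, 8.94, 6.29 and 8.61 on the P35 arrays and 7.21, 7.99 and 5.26 on the P28 arrays. Apoh, which encodes beta-2-glycoprotein I, had -1.94, 2.80, -2.56 and 3.92 on the P35 arrays and 0.08, 0.34 and -1.59 on the P28 arrays. Timd2, a receptor of the TIM family, had 3.97, 5.84, 3.69 and 5.74 on the P35 arrays and 4.89, 4.55 and 3.22 on the P28 arrays. In these 3 genes the arrays low in Xist were the high ones at both stages. Abcc3, a conjugate export pump, was the other way round, with 0.85, -1.92, 0.45 and -2.32 on the P35 arrays and -0.17, -0.47 and 1.27 on the P28 arrays. Slc22a29 ran like Abcc3, with 7.07, 5.31, 7.31 and 4.74 on the P35 arrays and 6.57, 6.03 and 7.83 on the P28 arrays.

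Akr1c14, a hydroxysteroid dehydrogenase gene, combined both kinds of difference. It had 3.83, 5.63, 3.60 and 6.14 on the P35 arrays, against 3.08, 3.97 and 1.43 on the P28 arrays, and the difference of 1.97 ± 0.77 did not pass the test. The step before it, P28 minus P21, was 4.80 (adjusted p = 0.0088), and no stage mean up to P21 exceeded -1.85. Xist was high on all P21 arrays but, at P28, only on array 3, which had the 1.43. What part the mix of Xist levels has in that step was not tested. Hsd11b1, which regenerates active glucocorticoid, had 3.58, 5.36, 3.69 and 5.56 on the P35 arrays, against 3.48, 3.73 and 3.87 on the P28 arrays. Its P35 arrays 2 and 4, low in Xist, stood above the 5 others, while at P28 the array high in Xist had the highest value. Of 16 male-biased genes 15 were above 0, with a median of 0.31. That median was 0.37 with Xist as a covariate, and it ran from 0.12 (without P28 array 3) to 0.48 when 1 array was left out. Within run 3 it was 0.60. There Xist was low on P35 arrays 2 and 4 but not 3, and on P28 array 2 but not 3. That mix of Xist levels differs from the mix over all arrays, and its part in the 0.60 was not tested. Of the female-biased genes, 5 of 10 were above 0, with a median of -0.09, which ran from -0.41 to 0.20 when 1 array was left out. With Xist as a covariate the genes passing the test numbered 5 (Chrdl1, Serpina6, Rhox9, Rhox6 and Sec14l3).

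**Figure D5:**
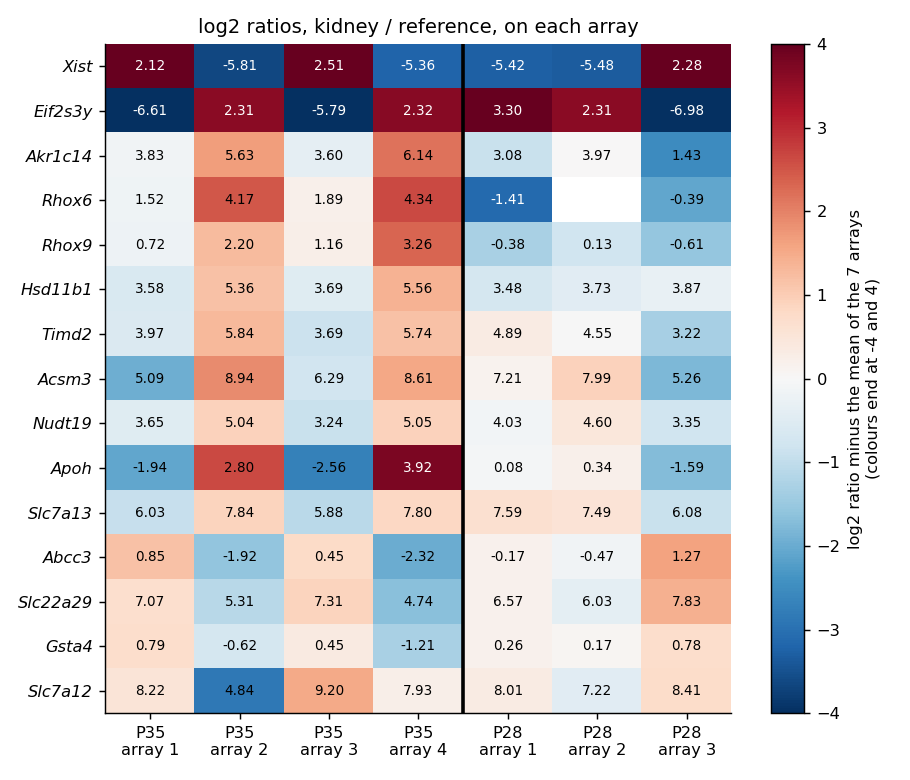
Each cell prints the log2 ratio of a gene on 1 array, with P35 arrays on the left of the black line and P28 arrays on the right, and its colour is that value minus the gene's mean over the 7 arrays; the empty cell is not measured. Genes in the rows from Akr1c14 to Slc7a13 are higher on P35 arrays 2 and 4, where Xist is low, than on P35 arrays 1 and 3, and Abcc3, Slc22a29 and Gsta4 are lower there.

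Other wide ranges belonged to single arrays. Cltrn, which encodes collectrin, a partner of amino acid transporters in the proximal tubule, had 12.41, 11.92, 7.48 and 11.46 on the P35 arrays and 12.48, 11.91 and 11.74 on the P28 arrays. P35 array 3 alone was low. Ugt8a, a galactosyltransferase of lipid synthesis, had 4.00, 5.73, 1.17 and 5.95 on the P35 arrays and 5.44, 5.27 and 3.99 on the P28 arrays, low on the same array. At P28, Ugt2b5, a glucuronosyltransferase, had 5.56, 3.41 and 0.31, within a P35 spread of 3.78, 4.58, 2.03 and 6.37. Akr1d1, the steroid 5-beta-reductase of bile acid synthesis, had 3.70, 3.50, 2.90 and 4.14 on the P35 arrays and 5.37, 2.75 and 0.40 on the P28 arrays. Creb3l3, a liver-enriched transcription factor, had 4.51, 2.49, 2.01 and 4.84 on the P35 arrays and 5.04, 3.68 and 0.48 on the P28 arrays, so P28 array 3 was the lowest in all 3 genes.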

How the data were processed

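Per the labels, kidney total RNA (Trizol) was labelled with Cy5 and hybridised against Cy3 reference RNA. The deposited values were read as log10 ratios, which the sources used here do not state, because they run from -3.25 to 4.00; they were multiplied by 3.32 to give log2 values. Were they log2 already, every difference would be smaller by that factor and adjusted p-values would stay. More intervals would then lie within 2-fold and 1.5-fold, and fewer genes would reach 2-fold, so those counts rest on this reading. Scanner processing is not given in the sources used here, nor is the meaning of exact 0 (10.8% to 23.1% of an array), which was treated as not measured. The ratio's direction was read from kidney marker genes. Signal over background could not be checked, and precision is set by how many arrays there are.

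Of 45220 probes, 33653 have 1 gene symbol, giving 18999 genes. A gene is the mean of its probes measured on all 32 arrays, or else the probe measured on most. limma 3.58.1 (R 4.3.3, with data.table, version 1.17.8) fitted 1 mean per stage to all 32 arrays, with 22 residual degrees of freedom, and Benjamini-Hochberg adjustment over every gene with values on 2 or more arrays of each stage. The fit was tested on simulated data. Figures used matplotlib 3.10.9 in Python 3.11.15.

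Groups follow the stated age. Named genes are those passing the test, then those of lowest unadjusted p up to 10 in each direction, the 2 largest differences of a list (a selection of which is printed), the 10 widest ranges within each stage, and the 5 largest differences between steps in each direction; others printed were chosen after their values were seen. The genes, lists and comparisons were chosen with earlier results of these data known. Replicate numbers only name arrays. Alternatives covered the image run, the arrays fitted, normalization, zeros, probes, filters, array weights, the prior and Xist.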

Additional observations from a re-analysis of the deposited data

Results flagged for a closer look

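On 4 of the 111 described genes with all P35 arrays measured, 1 P35 array stood apart from the other 3 by Dixon's criterion, which is 3.6% where chance gives about 1 in 20. 4930533I22Rik had 3.66 on P35 array 3, with the other P35 arrays between 2.66 and 2.79. Urah had 2.41 on P35 array 4, with the others between 1.65 and 1.70. Elf5, a transcription factor of the collecting duct, had 4.48 on P35 array 3, with the others between 5.58 and 5.77. Ppm1n had 0.61 on P35 array 1, with the others between -4.48 and -3.63.

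The change from P28 to P35 minus the change from P14 to P21 differed from 0 by limma's test in 10 genes with the largest such values. It was 6.35 for Cstdc6, 3.37 for Sntg2, 3.37 for Chrdl1, 3.33 for Pnma2 and 3.23 for Ulbp1. It was -3.13 for Serpina6, -3.05 for Gadd45g, -2.57 for Mfsd2a, -2.27 for Fst and -2.25 for 4930405H06Rik. With 1 array left out at a time, Cstdc6, Ulbp1 and Fst passed in 13 of 13 fits, Chrdl1 and Gadd45g in 12, Sntg2 in 11, 4930405H06Rik in 7, Mfsd2a in 6 and Serpina6 in 3, and Pnma2 in 6 of 11. P21 arrays were all high in Xist and P14 arrays all low. With Xist as a covariate, Sntg2, Pnma2, 4930405H06Rik and Serpina6 no longer passed limma's test, and the other 6 did. Age and Xist cannot be told apart within P21 minus P14, so the adjustment for Xist there rests on arrays of other stages. Which of the 10 differences go with Xist therefore cannot be read from that fit. Sntg2 had 1.09 for P35 minus P28 and -2.28 for P21 minus P14, and Gadd45g, a stress-inducible growth arrest gene, had -0.53 for P35 minus P28 and 2.53 for P21 minus P14. Mfsd2a, a lysophospholipid transporter, had 0.02 for P35 minus P28 and 2.59 for P21 minus P14. Pnma2 had 0.41 for P35 minus P28 and -2.92 for P21 minus P14, and was measured on 2 of the 3 P28 arrays.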

How the results depend on the processing

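The 2 genes passing the test from P28 to P35 became 4 with the image run as a block, 0 with only the 2 stages fitted, 0 within image run 3, 5 with exact zeros kept, 6 with array weights, 5 with Xist as a covariate, and 5 with run and Xist together, a fit added after the data were seen. With counts of 0, 383 and 753 genes had an unadjusted p under 0.05 with the 2 stages and with run 3. Leaving out 1 array gave 0 to 5 genes. It gave 0 without P28 replicate 1, 2 or 3 (476, 310 and 241 at an unadjusted p under 0.05), 1 without P35 array 4, 4 without P35 array 3 and 5 without P35 array 1. Quantile normalization, the most variable probe and both filters on missing values kept both genes and no other. The number of genes with an interval within 2-fold stayed between 9450 and 14032 in the settings other than leaving out an array. The 116 genes that differed between steps became 226 with the run as a block, 10 with only the compared stages, 1146 with array weights and 41 with Xist. Leaving out 1 array gave 28 to 150, with 28 without P21 replicate 1, 35 without P28 replicate 3, 46 without P14 replicate 2, 53 without P14 replicate 3 and 67 without P35 replicate 1. The cause was not tested. The medians of genes that rose or fell up to P21 kept their sign in every setting run. Quantile normalization and subtracting array medians moved the median of all genes to -0.0027 and -0.0010. No paired analysis was possible because replicate numbers only name arrays.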

Other observations

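At the level of single probes, 4 of 36158 tested from P28 to P35 passed limma's test: Chrdl1, Serpina6 and a pair of Sec14l3 probes, of which 1 was measured on only 9 of the 32 arrays. The 7134 tested probes without a gene name had 0 passing, with 163 at an unadjusted p under 0.05, against 636 of all probes.

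Some genes that had changed up to P21 differed by 2-fold or more between P35 and P28 without passing the test, and 3 are given here, chosen after their values were seen. Cxcl9, an interferon-gamma-induced chemokine, was 4.94 ± 0.52 at P35 (SD, n = 4) and 3.84 ± 0.53 at P28 (SD, n = 3), after a P21 minus E19 change of 3.76. Aldh3b3 was 5.08 ± 0.31 at P35 and 3.92 ± 0.37 at P28, after 2.54. Hsd17b2, which inactivates sex steroids, was 3.97 ± 0.96 at P35 and 2.73 ± 1.17 at P28, after -2.38.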
